A study of Capra hircus with 13 samples.

Results

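The genes described here encode 9 proteins of stored, translationally repressed messenger ribonucleoproteins (mRNPs) of the oocyte, namely *YBX1*, *YBX2*, *DDX6*, *LSM14A*, *LSM14B*, *CPEB1*, *ZAR1*, *PATL2* and *EIF4ENIF1*. They were chosen by name for their known function and not by a rule on their measured values, though earlier results of these data were known. All 9 were found among the 18138 gene names listed for all 13 libraries of the study. The libraries are bulk RNA-seq of goat oocytes and early embryos. The untreated groups are oocytes at metaphase II (MII) of meiosis, 4-cell and 8-cell embryos (n = 3 libraries each). In the other groups, zygotes produced by in vitro fertilization (IVF) were injected into the cytoplasm 8 h after fertilization with either a negative control siRNA (NC, titled WT in the labels, n = 2) or a mixture of siRNAs against *YTHDF2* at 20 μM (YTHDF2-KD, n = 2), and were collected at the 8-cell stage as pools of embryos. YTHDF2 is a reader of N6-methyladenosine that promotes the decay of marked mRNAs, and no other genetic change is given for any group.

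An oocyte that has stopped transcription lives on mRNAs made earlier, and it keeps many of them untranslated in mRNPs until meiosis resumes or the embryo divides. In such a particle CPEB1 binds the cytoplasmic polyadenylation element of the 3′ untranslated region, EIF4ENIF1 (4E-T) holds the cap-binding protein so that the ribosome is not recruited, DDX6 is the RNA helicase of the complex, LSM14A and LSM14B (RAP55 family) and PATL2 bind DDX6, and YBX1, its germ cell paralog YBX2 (MSY2) and ZAR1 bind the RNA itself. During the maternal-to-zygotic transition many stored mRNAs are polyadenylated and translated or degraded, and the embryo starts its own transcription.

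The siRNA mixture defines the knockdown group, and its antisense strands are therefore given with bases 2 to 8, the seed, in capitals.
s28148: uUGCUAGCaauaucagcccaa
s28147: uGGUCUAUaguauucaugcca
Both strands are 21 bases long, and their seeds differ from each other. The targeted gene was checked first. The FPKM (fragments counted per exon length and per library size) of *YTHDF2* was 112 and 159 in the NC libraries and 8.07 and 4.47 in the YTHDF2-KD libraries, so the groups lay far apart (log2 fold change of FPKM + 1 −4.25, SE 0.43, limma adjusted p = 3.7e-04). In untreated 8-cell embryos *YTHDF2* was at 10.8 to 16.7 (mean 13.3), and these were not tested against the injected groups.

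From the steps between low FPKM values, the untreated libraries were found to hold 26853876 to 42495116 fragments, and a storage gene was covered by 144 (*ZAR1*, 8-cell replicate 1) to 54911 (*CPEB1*, the same library) fragments, which is a counting error of 8.33% to 0.43%. This was not possible for the injected groups, whose FPKM are rounded to 2 decimals. The values of 4-cell replicate 1 and 8-cell replicate 1 still showed such steps when rounded alike, and the reason was not tested. The share of fragments on genes listed for all untreated stages was 64.8% to 66.3% in MII and 94.7% to 97.0% in the embryos, and over all tested genes the fold change against MII had a median of 0.29 (log2) in 4-cell and 0.37 in 8-cell embryos. The 8-cell replicate 1 stood apart from its group, as its correlation with replicates 2 and 3 over genes was 0.854 and 0.898 while replicates 2 and 3 correlated at 0.966. The labels do not say whether replicates are separate collections, so the p-values measure only the spread between these libraries. The untreated libraries come from previous work of the same authors, and any difference in handling between stages cannot be told apart from stage.

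The oocyte markers were above 1 FPKM in every library except *NLRP5*, which ranged from 0.20 to 8.70 in the untreated libraries and from 0.37 to 1.13 in the injected ones. The summed FPKM of the 7 oocyte markers listed in the tables (*ZP2*, *ZP3*, *ZP4*, *GDF9*, *BMP15*, *NLRP5*, *MOS*) was 1526 to 2468 in MII, 2117 to 3444 in 4-cell and 2499 to 3044 in 8-cell libraries. The summed FPKM of 9 cumulus and granulosa cell markers was 57.1 to 75.0, 67.5 to 74.9 and 95.6 to 142 in the same groups. It was carried by *STAR* (26.7 to 95.6 over the untreated libraries), *HAS2* (8.15 to 29.4), *VCAN* (9.45 to 16.3) and *TNFAIP6* (0.78 to 19.8), while *AMH* was listed at 0 in all of them and *FSHR* reached at most 0.25. Of 4 genome activation markers (*KLF17*, *ARGFX*, *LEUTX*, *DUXA*), the sum was 10.4 to 14.2 in MII, 54.3 to 127 in 4-cell and 334 to 1380 in 8-cell embryos, with replicate 1 the lowest 8-cell library.

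The stored mRNP genes covered a wide range of levels in the oocyte. *CPEB1* led in MII with an FPKM of 104, 128 and 135 (mean 122 ± 16.5, SD, n = 3), above the 97th percentile of the genes in each library. The cap-bound repressor *EIF4ENIF1* (44.8, 48.5 and 47.5) and the cold shock domain gene *YBX1* (45.1, 47.6 and 31.5) came next and overlapped each other, while both lay below all *CPEB1* values. The germ cell paralog *YBX2* followed with 9.37, 25.8 and 3.65, and its values overlapped those of *LSM14A* (6.45, 10.2 and 4.17).

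The lower part of the order in MII was made of *PATL2* (4.80, 12.7 and 2.42), *LSM14B* (4.85, 4.86 and 3.96), *ZAR1* (1.87, 4.42 and 1.08) and *DDX6* (1.96, 2.52 and 1.61). Every gene from *YBX2* down to *DDX6* overlapped the next one in this order. The MII libraries did not carry these transcripts alike. MII replicate 2 was the highest of the 3 for 8 of the 9 genes, and MII replicate 3 was the lowest for 7 of the 9, where 47.2% and 46.8% of all tested genes had these libraries as their highest and lowest. The highest MII library was 7.08 times the lowest for *YBX2*, 5.25 times for *PATL2* and 4.11 times for *ZAR1*, but only 1.08 times for *EIF4ENIF1*.

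In the embryos *CPEB1*, *EIF4ENIF1* and *YBX1* remained the 3 highest by mean. *CPEB1* overlapped *EIF4ENIF1*, and *EIF4ENIF1* overlapped *YBX1*, while *YBX1* did not overlap the gene below it. *LSM14A* moved up to the fourth place at both stages, and its values stood between those of *YBX1* and *YBX2* without overlapping either in 4-cell embryos. In 8-cell embryos *LSM14A* overlapped *YBX2*. Of all 9 genes *ZAR1* had the lowest mean at both stages and did not overlap *DDX6* above it.

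**Figure D1:**
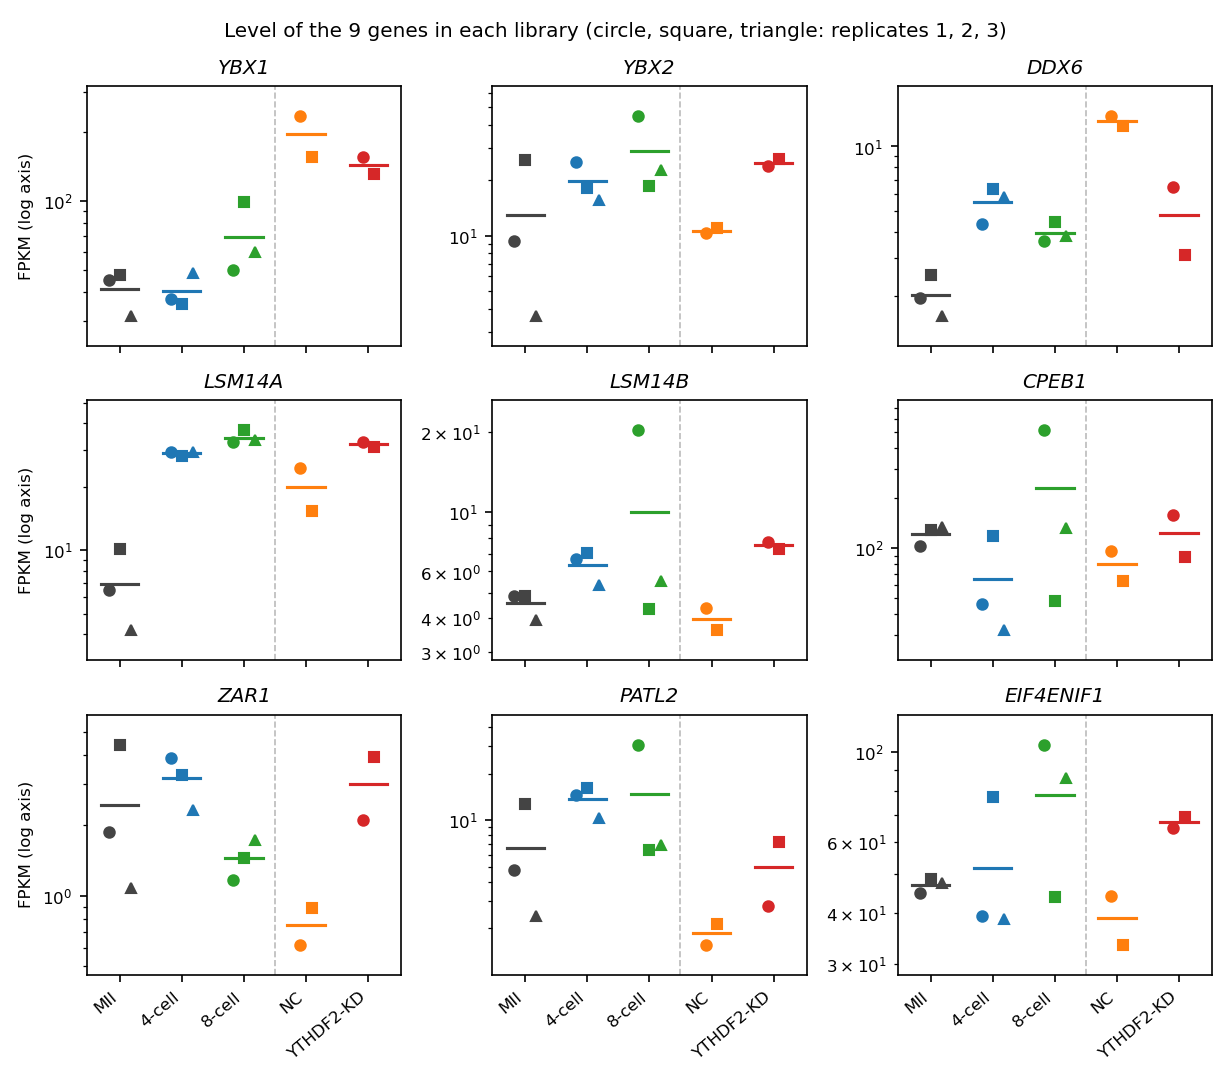
FPKM (log axis) of the 9 genes in each library, with a horizontal line at the mean of the group and a dashed line between the untreated libraries and the injected ones, which stand in separate tables. *LSM14A* shows 3 low MII values (4.17 to 10.2) and 3 close values at the 4-cell stage (28.1 to 29.4), and for *CPEB1* the circle of 8-cell replicate 1 (514) lies far above the square and the triangle of its group (48.1 and 133).

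*LSM14A* and *DDX6* were increased at the 4-cell stage compared with MII oocytes, and none of the 9 genes was called lower. This is 2 of 9 genes called higher at an adjusted p under 0.05, where 24.7% of all 9090 tested genes were called higher and 6.42% lower. The same 2 genes passed the rule of the study (p under 0.05 and more than 2-fold), which 16.7% of all tested genes passed upward and 6.06% downward. At an unadjusted p under 0.05 the count was again 2 higher and 0 lower, beside 32.8% and 9.74%. All 4-cell libraries lay above all MII libraries for 3 of the 9 genes (*LSM14A*, *DDX6* and *LSM14B*), beside 37.8% of all tested genes, and below them for none, beside 14.1%. The median log2 fold change of the 9 genes was 0.40, beside 0.29 for all tested genes. These shares of all tested genes depend on the scaling. Those called higher and lower were 11.9% and 10.1% with median-ratio scaling, 12.5% and 11% with quantile scaling (2 storage genes higher with each), and 9.59% and 13.2% with libraries scaled to the summed FPKM (1 storage gene higher).

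*LSM14A*, which recruits DDX6 to repressed mRNPs, had an FPKM of 29.4, 28.1 and 29.2 at the 4-cell stage. All 3 values exceeded the highest MII value of 10.2, and they were within 1.04 times of each other. The mean was 4.17 times that of MII (log2 fold change of FPKM + 1 1.99, SE 0.26, limma adjusted p = 0.00068), and the call held in 18 of 18 alternative settings. Within the libraries *LSM14A* moved from the 72.4th to 79.7th percentile in MII to the 87.6th to 88.9th at the 4-cell stage.

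*DDX6*, the helicase, was low in all untreated libraries, with 4.34, 6.32 and 5.81 at the 4-cell stage against at most 2.52 in MII. The log2 fold change was 1.10 (SE 0.23, limma adjusted p = 0.0061), and the mean was 2.70 times that of MII. With libraries scaled to the summed FPKM it was 0.70 (adjusted p = 0.064), the 1 setting of 17 in which *DDX6* was not called.

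The RNA-binding YB proteins showed no change that passed the test at the 4-cell stage. *YBX1* was at 37.4, 35.5 and 48.5, which overlapped the MII values (log2 fold change −0.02, 95% interval −0.64 to 0.60). *YBX2* was at 25.2, 18.2 and 15.7, also overlapping MII (0.90, adjusted p = 0.26). Its MII group is spread by replicate 2, and without that library *YBX2* was called higher (1.55, adjusted p = 0.033), whereas without MII replicate 3, the lowest, the difference was 0.28 (adjusted p = 0.73).

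*CPEB1* ranged from 32.0 to 118 at the 4-cell stage (46.3, 118 and 32.0), so that replicate 2 lay within the MII range and the other libraries below it (log2 fold change −1.10, SE 0.75, adjusted p = 0.30, −0.71 without 4-cell replicate 3). With 1 library left out this difference of *CPEB1* was −1.63 to −0.71, and in the other settings it was −1.64 to −1.10. *EIF4ENIF1* also had its highest 4-cell value in replicate 2 (39.3, 77.2 and 38.6; 0.06, adjusted p = 0.91). *PATL2*, a germ cell partner of DDX6 needed for oocyte maturation, was at 14.5, 16.2 and 10.4, with the lowest value within the MII range (1.16, adjusted p = 0.19, 1.70 without MII replicate 2 and 0.70 without MII replicate 3). *LSM14B* (6.68, 7.05 and 5.33) lay above all MII values, by a log2 fold change of 0.40 (adjusted p = 0.54) that was −0.05 with libraries scaled to the summed FPKM. *ZAR1* (3.90, 3.29 and 2.32) overlapped MII (0.37, adjusted p = 0.46, 0.76 without MII replicate 2 and 0.063 without MII replicate 3), and with that scaling its difference was −0.0093.

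*LSM14A* was also increased at the 8-cell stage compared with MII oocytes, and *DDX6* was called higher there in part of the settings only. Again 2 of 9 genes were called higher and 0 lower, beside 27.3% and 10% of all tested genes. With median-ratio, quantile and summed-FPKM scaling 1 of 9 was called higher, beside 15.1%, 15.6% and 14.9% of all tested genes, and 0 lower, beside 14.7%, 17.3% and 16.1%. Under the rule of the study the 2 genes that passed upward were *LSM14A* and *YBX2*, beside 19.8% of the tested genes, and none passed downward, beside 8.14%. At an unadjusted p under 0.05, 4 of 9 genes were higher and 0 lower, beside 34.3% and 12.8% of all tested genes. All 8-cell libraries lay above all MII libraries for *YBX1*, *LSM14A* and *DDX6*, which is 3 of 9 genes beside 36.4% of all tested genes, and below for 0 of 9, beside 13.7%. The median log2 fold change of the 9 genes was 0.71, beside 0.37 for all tested genes.

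*LSM14A* reached 32.5, 37.1 and 33.3 at the 8-cell stage, all more than 3 times the highest MII value. The mean was 4.95 times that of MII (log2 fold change 2.22, SE 0.26, limma adjusted p = 0.00027, called in 18 of 18 alternatives). The *DDX6* values of 3.60, 4.46 and 3.82 were above all MII values but below 5 (log2 fold change 0.72, SE 0.23, adjusted p = 0.033). This call was kept in 8 of 17 alternatives. It was lost with median-ratio, summed-FPKM and quantile scaling (0.45, 0.41 and 0.41, adjusted p = 0.18, 0.22 and 0.26), with no filter on low values (adjusted p = 0.056), with the replicate number as a block (adjusted p = 0.054), and without MII replicate 1 (adjusted p = 0.099), MII replicate 3 (0.11), 8-cell replicate 2 (0.084) or 8-cell replicate 3 (0.074).

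*YBX1* and *YBX2* had higher means at the 8-cell stage than in MII, short of the adjusted threshold. *YBX1* was at 50.03, 99.4 and 59.8, so all 8-cell libraries exceeded the highest MII value of 47.6 (log2 fold change 0.70, adjusted p = 0.073). Without 8-cell replicate 1, the lowest of the 3, it was 0.90 (adjusted p = 0.025), and without replicate 2, the highest, 0.42 (adjusted p = 0.21). In the other alternative settings the difference of *YBX1* was 0.26 to 0.72. *YBX2* was at 44.8, 18.6 and 22.8 and overlapped MII because of MII replicate 2 (1.35, SE 0.57, adjusted p = 0.090, 2.00 with adjusted p = 0.0095 without that library, and 0.74 with adjusted p = 0.29 without MII replicate 3).

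The other storage genes split the 8-cell group. *CPEB1* was at 514, 48.1 and 133, and the highest library was 10.7 times the lowest. *PATL2* (30.8, 6.42 and 6.95) and *LSM14B* (20.3, 4.36 and 5.55) showed the same order, with replicate 1 at 4.80 and 4.66 times the lowest library. *EIF4ENIF1* was at 104, 43.8 and 86.3. Replicate 1 was the highest 8-cell library for these 4 genes and *YBX2*, 5 of 9 genes beside 44.8% of all tested genes, and the lowest for the other 4, beside 35.4%. The log2 fold changes against MII were 0.29 for *CPEB1* (adjusted p = 0.79, −0.60 without replicate 1), 0.93 for *PATL2* (adjusted p = 0.27, 0.25 without replicate 1), 0.71 for *LSM14B* (adjusted p = 0.24, 0.096 without replicate 1) and 0.64 for *EIF4ENIF1* (adjusted p = 0.18, 0.39 without replicate 1, and 1.0 with adjusted p = 0.030 without replicate 2). The highest values with 1 library left out were 1.10 for *CPEB1*, 1.47 for *PATL2* and 1.09 for *LSM14B*.

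*ZAR1*, named zygote arrest 1 and known as a repressor of translation in oocytes, was at 1.17, 1.45 and 1.73 at the 8-cell stage. These values lay within the MII range (log2 fold change −0.38, adjusted p = 0.42, 0.0017 without MII replicate 2) and below all 4-cell values.

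**Figure D2:**
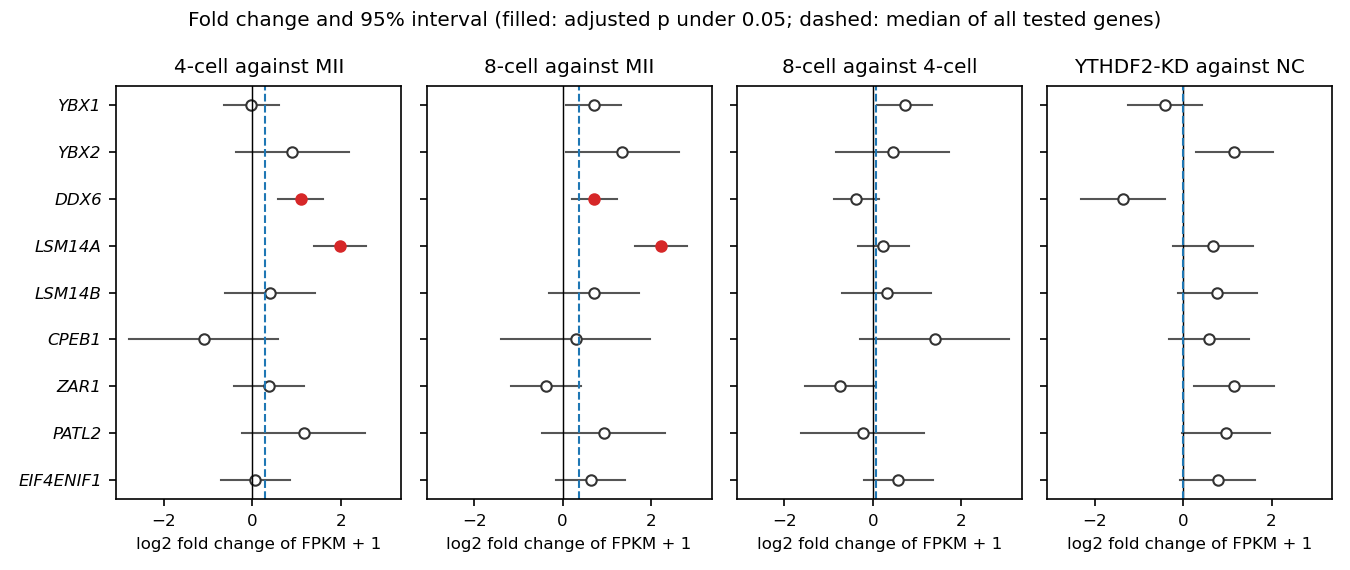
Log2 fold change of FPKM + 1 with its 95% interval for the 9 genes in each comparison, from limma, where filled points passed an adjusted p of 0.05 over all tested genes and the dashed line is the median of all tested genes. Only *LSM14A* and *DDX6* are filled, in both comparisons with MII, and no gene is filled in the comparison of YTHDF2-KD with NC, where *DDX6* (−1.36) lies on the other side of 0 from *YBX2* (1.16) and *ZAR1* (1.16).

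Between the 4- and 8-cell stages no storage gene passed the adjusted threshold by limma on FPKM (0 of 9, beside 3.06% of tested genes higher and 5.24% lower). The same held for limma voom on the recovered fragments (0 of 9, beside 3.04% higher and 5.1% lower). None passed the rule of the study, beside 4.55% higher and 4.28% lower. With summed-FPKM scaling 0 of 9 were called, beside 3.19% of tested genes higher and 3.05% lower, and when 1 library was left out 0 of 9 were called, beside 87 to 237 of all tested genes higher and 148 to 417 lower. At the unadjusted threshold of 0.05, 1 gene passed in each fit, and in the fit on FPKM it was *YBX1* (0.72, limma adjusted p = 0.15, 0.44 without 8-cell replicate 2), where 10.8% of all tested genes passed upward and 13.5% downward. All 8-cell libraries lay above all 4-cell libraries for *YBX1* and *LSM14A* (0.24, adjusted p = 0.60), 2 of 9 genes beside 11.6% of tested genes. They lay below for *ZAR1* (−0.75, adjusted p = 0.22), 1 of 9 beside 16.6%. The mean of *DDX6* was lower at the 8-cell stage, with an overlap of the groups (−0.38, adjusted p = 0.34), and the difference of *CPEB1* had an interval from −0.28 to 3.08 (1.40, 0.51 without 8-cell replicate 1 and 2.20 without 8-cell replicate 2).

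*LSM14A* and *LSM14B* encode close paralogs, and their ratio within a library is not moved by the scaling of that library's FPKM, apart from the added 1. The log2 ratio of *LSM14B* to *LSM14A* was −0.45 ± 0.44 (SD, n = 3) in MII and −2.03 ± 0.20 at the 4-cell stage. The groups did not overlap, and the difference of −1.58 had a two-sided exact permutation p of 0.1, and 3 against 3 libraries can give none smaller. At the 8-cell stage the ratio was −1.96 ± 1.15 (difference −1.51, exact permutation p = 0.2), and the difference was −2.16 without 8-cell replicate 1, whose ratio of −0.65 lay within the MII range while those of replicates 2 and 3 were −2.83 and −2.39.

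The log2 ratio of *YBX2* to *YBX1* was −1.94 ± 0.99 in MII, −1.02 ± 0.51 in 4-cell and −1.29 ± 1.10 in 8-cell embryos, with exact permutation p = 0.3 and 0.6 against MII (n = 3 per group). The 8-cell difference of 0.65 was 0.086 without 8-cell replicate 1 and 1.19 without MII replicate 2, and the 4-cell difference of 0.92 was 0.49 without MII replicate 3 and 1.46 without MII replicate 2. *PATL1* encodes the somatic paralog of PATL2 and was low in untreated libraries (1.58 to 7.64 FPKM). The log2 ratio of *PATL2* to *PATL1* was 1.26 ± 1.02 in MII, 2.20 ± 0.11 in 4-cell and 1.40 ± 0.50 in 8-cell embryos (exact permutation p = 0.4 and 1 against MII, n = 3 per group). When 1 library was left out, the 4-cell difference ranged from 0.52 (without MII replicate 3) to 1.51 (without MII replicate 2), and the 8-cell difference from −0.29 to 0.71 without the same libraries. In all 9 untreated libraries *PATL2* exceeded *PATL1*.

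**Figure D3:**
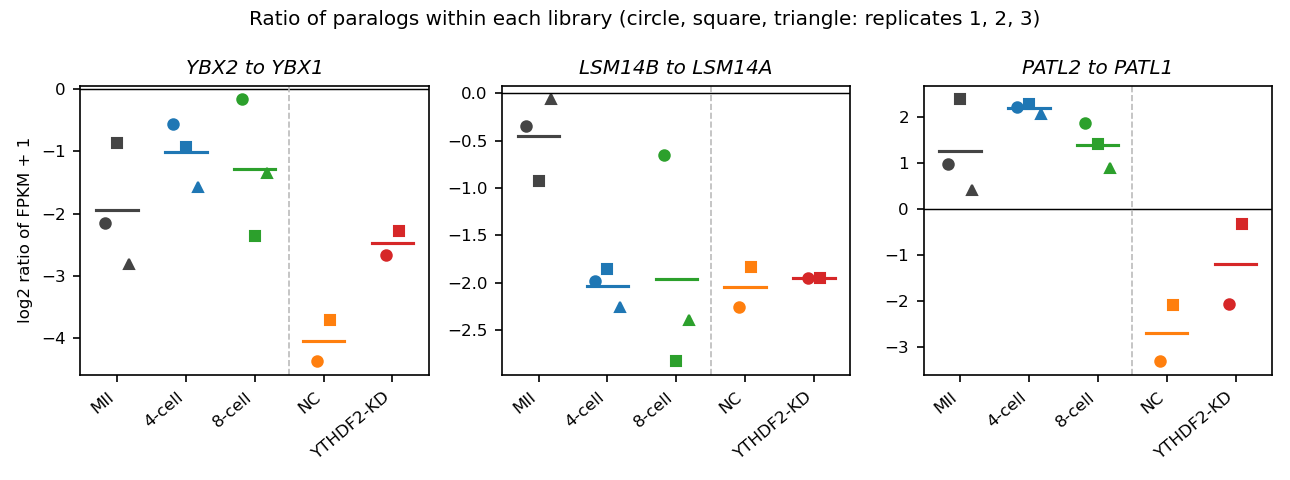
Log2 ratio of FPKM + 1 of each pair of paralogs in each library, with the mean of the group as a line and a dashed line before the injected libraries. The ratio of *LSM14B* to *LSM14A* lies between −0.93 and −0.06 in MII and below −1.8 in all 4-cell libraries, and the ratio of *PATL2* to *PATL1* is above 0 in all untreated and below 0 in all injected libraries.

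In the injected 8-cell embryos the order of the genes differed from that in untreated libraries. *YBX1* was highest in NC (235 and 156) with *CPEB1* (96.9 and 63.5), *EIF4ENIF1* (44.2 and 33.5) and *LSM14A* (24.7 and 15.4) below it, none of them overlapping the next. *DDX6* (13.9 and 12.5) exceeded *YBX2* (10.3 and 10.9) in NC. The least abundant in NC were *LSM14B* (4.37 and 3.61), *PATL2* (1.57 and 2.14) and *ZAR1* (0.62 and 0.89). In YTHDF2-KD the 4 highest by mean came in the same order, with *YBX1* and *CPEB1* overlapping, while *DDX6* (3.10 and 6.47) stood below *YBX2*, *LSM14B* and *PATL2* by mean and overlapped *PATL2*. The values of the injected libraries stand in tables of their own, rounded to 2 decimals, and NC was not tested against untreated 8-cell embryos.

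No storage gene passed the adjusted threshold between YTHDF2-KD and NC embryos in the limma fit (0 of 9, beside 2.06% of 11004 tested genes higher and 5.92% lower). At an unadjusted p under 0.05, 2 genes were higher (*YBX2* and *ZAR1*) and 1 lower (*DDX6*), beside 11.9% and 17.6% of all tested genes, and the same genes passed the rule of the study, beside 9.48% of tested genes higher and 15.3% lower. Both YTHDF2-KD libraries lay above both NC libraries for 6 of 9 genes, beside 30.3% of all tested genes, and below them for 1 of 9, beside 30.7%. The 6 genes were *YBX2*, *LSM14A*, *LSM14B*, *ZAR1*, *PATL2* and *EIF4ENIF1*. The median log2 fold change of the 9 genes was 0.77, beside 0.0054 for all tested genes.

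*YBX2* was at 23.8 and 26.0 in YTHDF2-KD against 10.3 and 10.9 in NC. The groups were narrow and did not overlap, and the mean was 2.35 times that of NC (log2 fold change 1.16, SE 0.41, limma adjusted p = 0.087). *ZAR1* was at 2.1 and 3.9 against 0.62 and 0.89 (1.16, SE 0.42, limma adjusted p = 0.096), and stood at the 53.5th and 64.4th percentile of the YTHDF2-KD libraries and at the 35.9th and 44.5th of NC. *PATL2* was at 2.78 and 7.22 against 1.57 and 2.14 (0.97, adjusted p = 0.18, 1.53 and 0.41 without YTHDF2-KD replicate 1 or 2).

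*DDX6* was the 1 storage gene with both YTHDF2-KD libraries below both NC libraries. Its FPKM was 6.47 and 3.10 against 13.9 and 12.5, so the NC mean was 2.75 times the YTHDF2-KD mean (log2 fold change −1.36, SE 0.45, limma adjusted p = 0.072). Without YTHDF2-KD replicate 1 it was −1.79 (adjusted p = 0.017), the 1 alternative of 12 that called it, and without YTHDF2-KD replicate 2 it was −0.92 (adjusted p = 0.39). *LSM14A* was at 32.7 and 31.1 against 24.7 and 15.4 (0.68, adjusted p = 0.29, 1.0 and 0.35 without NC replicate 1 or 2), *LSM14B* at 7.73 and 7.29 against 4.37 and 3.61 (0.77, adjusted p = 0.23), and *EIF4ENIF1* at 64.8 and 69.1 against 44.2 and 33.5 (0.78, adjusted p = 0.20).

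The groups overlapped for the remaining genes. *YBX1* was at 156 and 131 in YTHDF2-KD against 235 and 156 in NC (−0.42, 95% interval −1.26 to 0.42, adjusted p = 0.49, −0.12 and −0.71 without NC replicate 1 or 2). *CPEB1* was at 158 and 88.7 against 96.9 and 63.5 (0.59, interval −0.32 to 1.5, adjusted p = 0.37). The difference of *CPEB1* was 0.17 and 1.0 without YTHDF2-KD replicate 1 or 2, and 0.89 and 0.29 without NC replicate 1 or 2. With 2 libraries a group these intervals include differences of more than 2-fold.

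Within the paralog pairs, the log2 ratio of *YBX2* to *YBX1* was −4.05 ± 0.47 (SD, n = 2) in NC and −2.47 ± 0.26 in YTHDF2-KD, and that of *PATL2* to *PATL1* was −2.70 ± 0.87 and −1.19 ± 1.23. Neither pair of groups overlapped (differences 1.58 and 1.51, the second 2.38 without YTHDF2-KD replicate 1, 0.64 without YTHDF2-KD replicate 2 and 0.89 without NC replicate 1), and the exact permutation p was 0.333, below which 2 against 2 libraries cannot go. The ratio of *LSM14B* to *LSM14A* was −2.05 ± 0.30 and −1.95 ± 0.0028 (difference 0.10, exact permutation p = 1, −0.12 without NC replicate 1 and 0.31 without NC replicate 2).

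Both YTHDF2-KD libraries exceeded both NC libraries for 7 of 7 oocyte markers, beside 30.3% of all tested genes. Their summed FPKM was 479 to 752 in NC and 970 to 1890 in YTHDF2-KD, and of the 6 tested ones 1 was called higher (*MOS*, log2 fold change 1.72, adjusted p = 0.047), beside 2.06% of all tested genes. By the rule of the study 4 of these 6 were higher, beside 9.48%, and at an unadjusted p under 0.05 all 6, beside 11.9%. The 9 cumulus and granulosa markers summed to 43.4 to 50.3 in NC and 81.8 to 91.2 in YTHDF2-KD. Of these 9 markers 5 had both YTHDF2-KD libraries above both NC libraries, and the sum was carried by *STAR* (mean 19.0 in NC and 30.9 in YTHDF2-KD), *HAS2* (10.4 and 21.9), *VCAN* (11.1 and 18.7) and *TNFAIP6* (5.63 and 13.8), none of which passed the adjusted threshold, while *AMH* was at most 0.39 and *FSHR* was listed at 0 in all 4 libraries. Of the 4 tested cumulus and granulosa markers 2 were higher by the rule of the study, beside 9.48%, and 2 at an unadjusted p under 0.05, beside 11.9%. The activation markers summed to 3153 to 3905 and 3123 to 3480. The part of these markers in the values of the storage genes was not tested. In bulk samples, fewer cells that carry a transcript and less of it per cell cannot be told apart, nor can a shorter poly(A) tail and fewer mRNA molecules in cDNA primed on poly(A) tails.

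**Figure D4:**
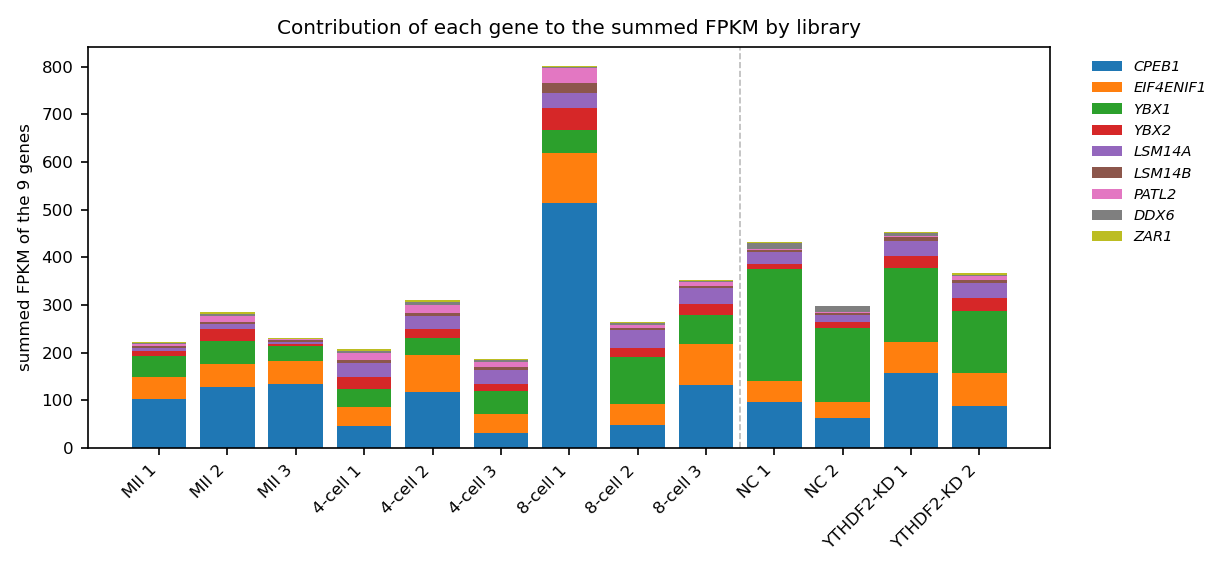
Summed FPKM of the 9 genes in each library, stacked by gene from 0, with a dashed line before the injected libraries. *CPEB1* takes 45.1% to 58.5% of the sum in MII and 64.1% in 8-cell replicate 1, whose bar (801) is the tallest, and *YBX1* takes 54.4% and 52.2% in NC.

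Summed over the 9 genes, the FPKM was 246 ± 33.8 in MII, 235 ± 65.6 in 4-cell and 473 ± 288 in 8-cell embryos (SD, n = 3), and 365 ± 94.2 in NC and 411 ± 61.6 in YTHDF2-KD (n = 2). Without 8-cell replicate 1 the mean of the 8-cell embryos was 308. The share of *CPEB1* was 17.1% to 38.0% in 4-cell embryos, below all MII values, and 18.2% to 64.1% in 8-cell embryos. It was 21.3% to 22.5% in NC and 24.2% to 34.7% in YTHDF2-KD.

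The nearest paralogs and partners of the storage genes were measured in the same way. *ZAR1L*, the paralog of *ZAR1*, had 192, 222 and 365 FPKM in MII, far above *ZAR1* itself, and 123 to 589 in untreated embryos, with no call at either stage. In YTHDF2-KD it was at 188 and 265 against 102 and 82.6 in NC (1.27, adjusted p = 0.058). *EIF4E1B*, the oocyte form of the cap-binding protein that binds 4E-T, was at 110, 88.6 and 113 in MII, ranged from 38.0 to 303 in the 8-cell libraries with replicate 1 the highest, and was at 42.1 and 59.8 in YTHDF2-KD against 29.0 and 20.5 in NC (1.01, adjusted p = 0.13). *YBX3*, the other YB gene, was below 3 FPKM in all untreated libraries and at 3.96 and 2.86 against 19.8 and 7.74 in the injected groups (−1.62, adjusted p = 0.052). *PATL1* was at 14.7 and 9.29 against 24.6 and 12.3 (−0.54, adjusted p = 0.45).

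Of 52 further genes of these pathways (paralogs, cap binding, cytoplasmic polyadenylation, granules and repressors), 41 were tested in the untreated libraries. At the 4-cell stage 10 were called higher and 1 lower than in MII, beside the 24.7% and 6.42% of all tested genes. They included the canonical cap-binding protein gene *EIF4E* (log2 fold change 1.51, adjusted p at most 0.020 over 18 alternatives), the cleavage and polyadenylation subunit gene *CPSF2* (1.62), the deadenylase gene *PARN* (1.0), *CSTF3* (0.86), *CPEB2* (0.79) and *CPEB4* (0.60). Among the granule and repressor genes *NANOS1* (2.60) and *DAZL* (1.77) were higher, and *FMR1*, which encodes the RNA-binding protein FMRP, was lower (−1.99). *EIF4E*, *CPSF2*, *NANOS1*, *DAZL* and *FMR1* kept their calls in 18 of 18 alternatives, *PARN* in 16, *CSTF3* in 15, *CPEB2* in 12 and *CPEB4* in 8, with no change of direction.

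At the 8-cell stage 11 of the 41 genes were called higher and 1 lower than in MII, beside 27.3% and 10% of all tested genes, with *NANOS1* (3.07), *PARN* (1.29), *STAU1* (1.26), *EIF4E* (1.14), *CPSF2* (1.06) and *CPEB4* (0.76) higher and *FMR1* (−2.55) lower. *NANOS1*, *PARN* and *FMR1* kept these calls in 18 of 18 alternatives, *EIF4E* and *CPSF2* in 17, and *STAU1* and *CPEB4* in 15. Between the 4- and 8-cell stages, *STAU2* (1.0) was called higher and *DAZL* (−0.88) and *CSTF3* (−0.90) lower, which is 1 and 2 of 41 beside 3.06% and 5.24% of all tested genes. In the knockdown 45 genes were tested and 1 was called higher and 3 lower, beside 2.06% and 5.92% of all tested genes. *NANOS1* (1.54) was higher while *EIF4E2* (−2.01), an alternative cap-binding protein gene, *TIA1* (−1.73) and *RC3H2* (−1.58) were lower. *EIF4E2* was at 14.7 and 8.24 in YTHDF2-KD against 41.1 and 54.8 in NC (adjusted p = 0.016), and was called in 8 of 12 alternatives. *NANOS1*, which encodes a translational repressor of the germ line, was at 23.8 and 30.6 against 10.6 and 7.04, and was called in 5 of 12. *TIA1* was at 0.35 and a listed 0 against 4.70 and 1.61 and was called in 5 of 10, and *RC3H2* in 4 of 11.

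The genes with the pattern most like *LSM14A* over the 9 untreated libraries, by Pearson correlation of log2(FPKM + 1), were *SHOC2* (r = 0.995), *LHFPL3* (0.990) and *EXTL2* (0.988). For *DDX6* they were *POLR2D* (0.984), *FANCD2* (0.978) and *CNOT2* (0.976), the last a subunit of the CCR4-NOT deadenylase complex. *CNOT2* had mean FPKM of 27.6 in MII, 45.5 in 4-cell and 36.0 in 8-cell embryos. These correlations were the largest of all tested genes, and the points share their libraries and the scaling of each, so they are given as a description.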

How the data were processed

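The deposited tables hold FPKM values that the authors computed for each library and gene. Per the labels, cDNA of all libraries was made with Smart-seq2 from directly lysed samples, and per the methods of the study injected embryos were pooled, reads were aligned to the goat genome ARS1 with HISAT2, uniquely mapped reads were counted with HTSeq, and the authors called genes with DESeq2. All columns of values were used (0 left out), and rows with a repeated name were dropped. Gene names were matched to RefSeq symbols of a later assembly release (18122 of 18159), so no coordinates are given.

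The genes whose mean reached 1 FPKM were tested on log2(FPKM + 1), which understates the change of low genes, with limma 3.58.1 (trend) in R 4.3.3, in 1 fit for the 9 untreated and 1 for the 4 injected libraries. A gene was called at a Benjamini-Hochberg adjusted p under 0.05 over all tested genes. The tests were checked on simulated data with independent errors. These data held no outlying library and no shift in scaling, so the check does not cover those. Library totals were recovered from the steps of FPKM in the untreated tables, with 17917 of 17918 genes whole within 0.05 fragment in all 9. Ratios of paralogs were tested with exact permutation (scipy 1.17.1).

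The 9 genes, the other lists and the tests were chosen with earlier results of these data known. Named were all 9 genes, *YTHDF2*, fixed paralogs and partners, up to 3 called genes of each other list by size of change, and the 3 genes most like each of the 2 storage genes with the largest called change. *OOEP*, *CYP11A1*, *ZSCAN4* and *TPRX1* were not matched by name. Alternatives were pseudocount 0.1, no filter or a mean of at least 5 FPKM, median-ratio, summed-FPKM and quantile scaling, no trend, a replicate block, the rule of the study and leaving out each library, and, chosen after seeing the data, limma voom on recovered fragments and crossed replicate numbers.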

Additional observations from a re-analysis of the deposited data

How the results depend on the processing

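*LSM14A* kept its call against MII at both stages in every alternative run, and of 586 alternative values of single genes 553 kept their direction and side of the threshold, 18 reversed, 10 lost and 5 gained a call. The number of storage genes called higher at the 4-cell stage was 1 in place of 2 with a mean of at least 5 FPKM, which leaves out *DDX6*, and with summed-FPKM scaling, and 2 to 3 when 1 library was left out. The shares of all tested genes called higher in these runs were 36.6%, 9.59% and 16.5% to 30.4%. At the 8-cell stage against MII the number was 1 with no filter, at least 5 FPKM, median-ratio, summed-FPKM or quantile scaling and the replicate block, and 1 to 3 when 1 library was left out. In the same order, 14%, 35.6%, 15.1%, 14.9%, 15.6%, 23.5% and 19.2% to 28.6% of all tested genes were called higher. In the knockdown the rule of the study gave 2 higher and 1 lower, beside 9.48% and 15.3% of all tested genes. With 1 of 2 injected libraries left out, the lone library was assumed to vary like the other group.

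Differences near 0 changed sign. At the 4-cell stage against MII these were *LSM14B* (−0.053) and *ZAR1* (−0.0093) with summed-FPKM scaling, *EIF4ENIF1* (−0.23, −0.47 and −0.36 with median-ratio, summed-FPKM and quantile scaling, −0.26 to 0.23 when 1 library was left out) and *YBX1* (−0.20 to 0.087 when 1 library was left out, −0.55 to −0.011 in the other settings). At the 8-cell stage *CPEB1* was −0.087, −0.13 and −0.14 with the same scalings and −0.60 to 1.10 when 1 library was left out, and *ZAR1* was −0.69 to 0.0017. Between the 8- and 4-cell stages leaving out 1 library gave −0.31 to 0.69 for *LSM14B* and −0.92 to 0.14 for *PATL2*. Of the paralog ratios, the difference of *PATL2* to *PATL1* at the 8-cell stage against MII (−0.29 to 0.71) and of *LSM14B* to *LSM14A* in the knockdown (−0.12 to 0.31) changed sign when 1 library was left out. The cause was not tested.

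Over all genes, the values as deposited gave 2249 higher and 584 lower at the 4-cell stage, where median-ratio scaling gave 1083 and 922, quantile scaling 1138 and 1004, and summed-FPKM scaling 872 and 1199 (median of all genes 0.29, and 0.06, 0.05 and −0.13). At the 8-cell stage against MII they gave 2486 and 912, and the same scalings 1371 and 1337, 1417 and 1570, and 1352 and 1461 (median 0.37, and 0.06, 0.03 and 0.03). Leaving out 1 library gave 1511 to 2669 higher and 309 to 895 lower at the 4-cell stage (fewest without MII replicate 1, most without 8-cell replicate 1, which enters through the shared spread). Between the 8- and 4-cell stages it gave 87 to 237 higher and 148 to 417 lower in place of 278 and 476 (87 without 4-cell replicate 1, 148 without 4-cell replicate 3), and summed-FPKM scaling gave 290 and 277. In the knockdown the counts were 227 and 651, 52 and 185 with quantile scaling and 0 and 0 with no filter, and leaving out 1 library gave 50 to 481 higher (fewest without NC replicate 2, most without YTHDF2-KD replicate 1) and 245 to 1136 lower (fewest without YTHDF2-KD replicate 2, most without replicate 1). The replicate numbers did not pair the untreated libraries (same-number correlations −0.51 to 0.20), and with the number as a block the only lost call among the storage genes was *DDX6* at the 8-cell stage (0.72, adjusted p = 0.054), while the knockdown counts were 78 and 383. The same-number correlation of the injected libraries was −0.15, and with 2 libraries a group the crossed correlation must then be 0.15. The crossed numbers as a block gave 700 higher and 1407 lower of 11004 tested genes, and 2 of 9 storage genes called. This pairing is not given by the labels. Choosing the pairs that correlate positively lowers the spread left in the fit, so no conclusion is drawn from these counts.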
